A study of Mus musculus with 18 samples.

Results

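Adipocytes store triglyceride in a single large droplet, or in many small ones in brown fat, and they secrete hormones that are made by few other cells. The kidney lies in a pad of fat, so that total kidney RNA can hold fat cell transcripts. The 10 adipocyte marker genes described here are Adipoq, Lep, Retn and Cfd, which encode secreted proteins, Plin1, Plin4 and Cidec, which encode lipid droplet proteins, Fabp4 and Car3, which encode cytosolic proteins, and Ucp1, the uncoupling protein of brown fat. All 10 were found by symbol among the 53383 rows of the count table, 41967 of which carry gene identifiers. They were chosen by their known expression in fat cells and by their counts in 13-week Clr-f-/- against WT kidneys, so that their values in that contrast are given as a description, with no call.

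The 18 libraries were made from total RNA of frozen kidneys of C57BL/6 mice. WT mice and Clr-f-/- mice, which lack exons 3 and 4 and part of exon 5 of Clr-f (Clec2h) in every cell after homologous recombination in ES cells, were sampled at 7, 13 and 24 weeks, with 3 mice in each of the 6 groups. Clr-f encodes a C-type lectin-like ligand of the NKR-P1 receptor family. The mice were matched for age and sex within each comparison according to the study's methods. Each mouse gave 1 library. Library totals ran from 22193736 to 32742734 counts, and a floor of 3 counts corresponded to between 0.0916 and 0.135 CPM, the count scaled to the library total. In bulk RNA, more fat cells and more RNA per fat cell cannot be told apart.

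The 3 Clr-f-/- libraries of 13 weeks stood apart from the others, with 19541 to 23732 identifiers counted against 24149 to 26113 in the other 15. The third 24-week Clr-f-/- library held 18176 counts of Xist and between 0 and 2 counts of each of 4 Y-linked genes. The other libraries at 24 weeks held at most 23 counts of Xist and at least 598 of each of these Y-linked genes. By these counts the third Clr-f-/- library came from a female and the others of that age from males. The sexes were thus not matched at 24 weeks, against what the methods state. Klrb1 counts followed the genotype labels in all 18 libraries, with 0 to 4 counts in WT and 522 to 4163 in Clr-f-/-, whereas Clec2h counts, which are taken over the whole gene, overlapped between the genotypes at each age.

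For 4 members whose counts were near 0 in some libraries and high in others, the 250 bases before the start site are shown, read from RefSeq on GRCm38.p6 and written 5′ to 3′ on the gene's strand. Entries were matched for 8 of the 10 members, all but Fabp4 and Car3. Adipoq, which encodes the hormone adiponectin, starts on the plus strand of chromosome 16, and the stretch is chr16:23146286-23146535. Capitals mark CCAAT or its reverse complement ATTGG.

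Adipoq: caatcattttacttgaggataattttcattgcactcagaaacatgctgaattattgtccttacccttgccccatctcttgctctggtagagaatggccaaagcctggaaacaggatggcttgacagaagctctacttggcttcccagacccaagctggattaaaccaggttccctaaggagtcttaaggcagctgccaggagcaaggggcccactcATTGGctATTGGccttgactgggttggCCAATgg

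Retn, which encodes resistin, lies on the plus strand of chromosome 8, and the stretch is chr8:3655520-3655769. Cfd, which encodes complement factor D (adipsin), the protease that cleaves factor B in the alternative complement pathway, lies on the plus strand of chromosome 10, and the stretch is chr10:79890603-79890852. Both stretches are shown in lower case since they held none of the motifs searched.

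Retn: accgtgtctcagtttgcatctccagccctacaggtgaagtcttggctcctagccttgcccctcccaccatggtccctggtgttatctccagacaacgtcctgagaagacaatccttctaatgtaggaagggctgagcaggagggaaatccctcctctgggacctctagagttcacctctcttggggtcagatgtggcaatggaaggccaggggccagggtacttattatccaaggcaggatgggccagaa

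Cfd: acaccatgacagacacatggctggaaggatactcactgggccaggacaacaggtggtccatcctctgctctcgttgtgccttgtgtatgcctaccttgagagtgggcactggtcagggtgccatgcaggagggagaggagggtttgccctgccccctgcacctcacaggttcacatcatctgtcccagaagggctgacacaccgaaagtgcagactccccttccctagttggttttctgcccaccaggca

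Ucp1, which encodes the mitochondrial protein that lets brown fat turn fuel into heat, lies on the plus strand of chromosome 8, and the stretch is chr8:83290098-83290347. Capitals mark AGGTCA, the reverse complement of the nuclear receptor half-site TGACCT.

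Ucp1: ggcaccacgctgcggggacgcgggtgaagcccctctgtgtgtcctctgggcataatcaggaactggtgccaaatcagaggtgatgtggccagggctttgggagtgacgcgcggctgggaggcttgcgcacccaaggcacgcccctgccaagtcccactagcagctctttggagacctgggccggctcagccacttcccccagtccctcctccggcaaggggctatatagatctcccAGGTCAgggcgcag

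The 5 motifs were searched on both strands over 250 bases before to 50 bases after each start. TATAAA was present in 12.4% of 32851 such promoters and in no member. CCAAT was present in 33.8% of promoters, and was found 3 times in Adipoq, at 34, 27 and 7 bases before the start, and once in Plin4. TGACCT was present in 14.0% of promoters and, of the members, in Ucp1. The direct repeat 1, which is a pair of AGGTCA with 1 base between them and so contains that half-site, was present in 0.0335% of promoters and in no member. TTGCNNAA, a C/EBP core, was present in 9.56% of promoters and was found in Lep, Plin1 and 1 of the 2 Cidec promoters. These matches describe letters in a window and were not tied to the measured levels.

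At 7 weeks Adipoq, Cfd and Retn were highest in 1 of the 6 kidneys, the third Clr-f-/- one, and Adipoq and Retn had at most 4 counts in each of the other 5. Adipoq was counted 1, 4 and 0 times in the 3 WT libraries and 4, 0 and 90 times in the 3 Clr-f-/- libraries. The third Clr-f-/- library was thus the source of nearly all counts of this gene at 7 weeks. Cfd was counted 23, 17 and 11 times in WT and 8, 3 and 480 times in Clr-f-/-. Retn was counted 0, 0 and 2 times in WT and 2, 0 and 24 times in Clr-f-/-. Lep, which encodes the satiety hormone leptin, had 0 counts in all 3 WT libraries and 0, 1 and 1 counts in Clr-f-/-, so that its level at this age was under the floor of 3 counts per library.

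The lipid droplet members split in the same manner at 7 weeks, with Plin4 as the exception. Plin1, which coats the droplet and gates access of lipases, was counted 4, 1 and 0 times in WT and 5, 0 and 121 times in Clr-f-/-. Cidec, which fuses droplets into larger ones, was counted 11, 13 and 12 times in WT and 7, 8 and 127 times in Clr-f-/-. Both genes were again high in the third Clr-f-/- library alone. Plin4, a perilipin of fat and muscle cells, was counted 49, 77 and 100 times in WT and 98, 98 and 154 times in Clr-f-/-. As CPM of the library total, Plin4 was 2.68 ± 0.791 (SD, n = 3) in WT and 4.43 ± 0.829 (SD, n = 3) in Clr-f-/-, and it was the only member whose groups did not overlap at this age. Among all genes measured in this comparison, 19% were higher in every Clr-f-/- library than in every WT library.

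Fabp4 and Car3 were abundant in every library at 7 weeks. Fabp4, a fatty acid carrier of adipocytes that endothelial cells and macrophages also express, was counted 970, 878 and 1663 times in WT and 936, 1341 and 2326 times in Clr-f-/-. Car3, a carbonic anhydrase abundant in adipocytes and muscle, was counted 1154, 766 and 784 times in WT and 538, 379 and 1029 times in Clr-f-/-. The groups overlapped for both. Ucp1 was counted 2, 7 and 0 times in WT and 1, 1 and 18 times in Clr-f-/-.

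**Figure D1:**
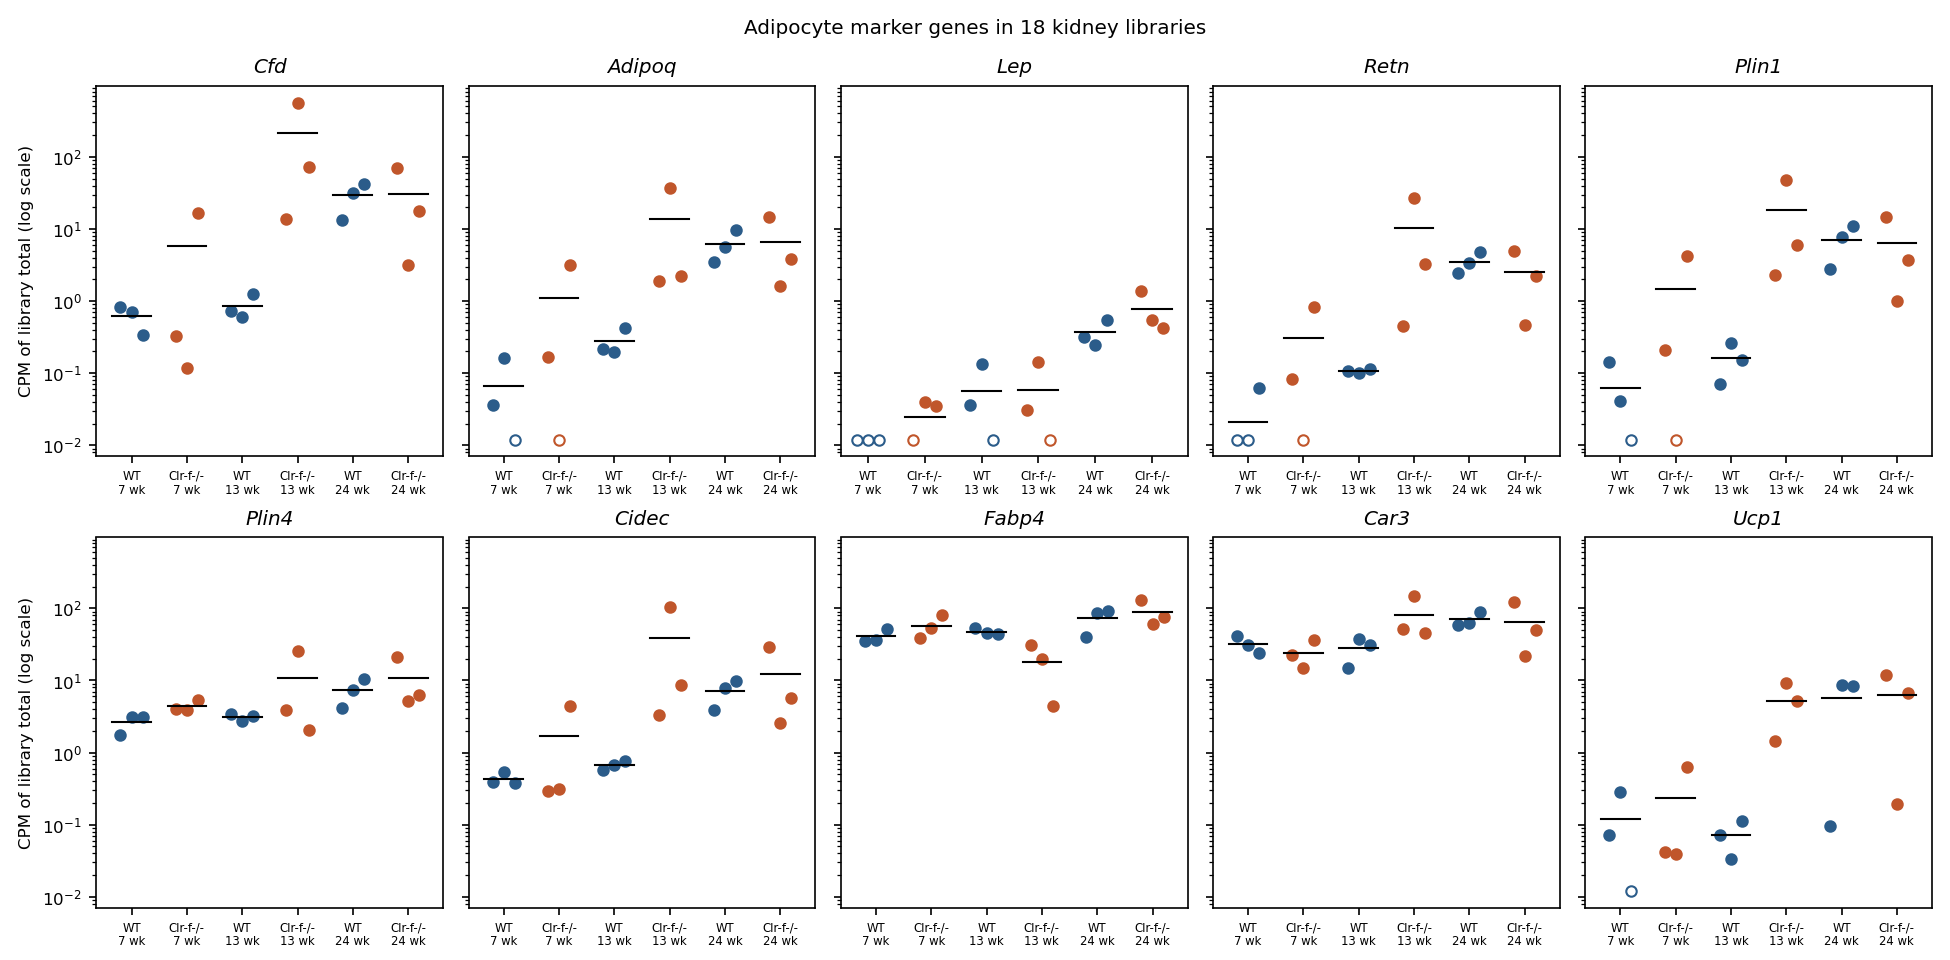
Level of each marker gene in each library, as CPM of the library total on a log axis, by genotype (blue, WT; orange, Clr-f-/-) and age, with bars at the mean of 3 libraries and open circles at the bottom for a count of 0. Adipoq, Cfd, Plin1 and Cidec lie under 1 CPM at 7 weeks except in the third Clr-f-/- library, Retn lies under 1 CPM in all 6 libraries of that age, and these 5 genes are spread widely in both genotypes at 24 weeks, and Fabp4 and Car3 are high in nearly all libraries.

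For the comparison of Clr-f-/- with WT at 7 weeks, 3 of the 10 members passed the filter of at least 1 CPM in at least 3 libraries, and none reached an adjusted p under 0.05 in edgeR's quasi-likelihood test, where 0.464% of 14226 rows did. The log2 fold change was 0.66 ± 0.25 (SE) for Plin4, with an adjusted p of 0.205. It was 0.42 ± 0.24 for Fabp4 and -0.48 ± 0.30 for Car3. At an unadjusted p under 0.05, Plin4 was the 1 member called, where 19.7% of rows were, and DESeq2 called 0 members and 4.59% of rows. With no filter, 5 members were called, Adipoq, Cidec, Plin1, Cfd and Fabp4, where 4.22% of rows were, although all 5 overlapped between the genotypes. The third Clr-f-/- library was the highest of the 6 libraries in 8 of the 10 members.

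At 24 weeks fat cell transcripts were counted in all 6 kidneys and the genotypes overlapped for each of the 10 members. Of all genes measured at this age, 22.6% were higher and 7.55% lower in every Clr-f-/- library than in every WT library. Adipoq was counted 108, 135 and 268 times in WT and 423, 42 and 109 times in Clr-f-/-. Cfd was counted 408, 769 and 1162 times in WT and 2067, 82 and 508 times in Clr-f-/-. Retn was counted 76, 81 and 129 times in WT and 145, 12 and 63 times in Clr-f-/-. The first Clr-f-/- library was the highest of the 6 for all 3 genes and the second was the lowest. Lep was counted 10, 6 and 15 times in WT and 40, 14 and 12 times in Clr-f-/-. Its mean CPM was the lowest of the 10 members in both genotypes, although it did not have the lowest count in every library.

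Of the lipid droplet members at 24 weeks, Plin1 and Cidec put the 6 libraries in the same order as Adipoq. Plin1 was counted 87, 187 and 297 times in WT and 423, 26 and 105 times in Clr-f-/-. Cidec was counted 122, 188 and 271 times in WT and 842, 67 and 162 times in Clr-f-/-. Plin4 was counted 131, 180 and 285 times in WT and 620, 134 and 181 times in Clr-f-/-. The range among the 3 Clr-f-/- mice covered that of the 3 WT mice for Plin1 and Cidec.

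Among the cytosolic proteins, Fabp4 was counted 1264, 2113 and 2534 times in WT and 3816, 1539 and 2146 times in Clr-f-/- at 24 weeks. Car3 was counted 1841, 1497 and 2443 times in WT and 3593, 569 and 1438 times in Clr-f-/-. The first Clr-f-/- library was the highest for both, as it was for all 10 members at this age, and the second was the lowest for 6 members.

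Of the 9 members tested at 24 weeks, none was called between the genotypes at an adjusted p under 0.05 in edgeR's quasi-likelihood test, none at an unadjusted p under 0.05 and none by DESeq2. Of 14270 rows, these rules called 0.0491%, 18.2% and 4.54%. The first of these is 7 rows, and it became 290 without the third Clr-f-/- library, the one with the Xist counts, and between 0 and 3 without any other library, where 1577 to 2839 rows had an unadjusted p under 0.05. Fitted log2 fold changes of Clr-f-/- over WT were 0.00 ± 0.94 (SE) for Cfd, 0.01 ± 0.76 for Adipoq, -0.53 ± 0.68 for Retn, -0.22 ± 0.88 for Plin1 and 0.72 ± 0.83 for Cidec. They were 0.50 ± 0.58 for Plin4, 0.20 ± 0.37 for Fabp4, -0.19 ± 0.55 for Car3 and 0.09 ± 1.34 for Ucp1. Each of these 9 differences was smaller than its SE. The sign turned for 8 of the 9 members, all but Retn, in at least 1 of 12 alternatives, and none was called in any.

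Between 7 and 24 weeks of age in WT mice, 8 of the 10 members were higher in every 24-week library than in every 7-week library, and Fabp4 and Ucp1 overlapped. Of all genes measured in this comparison, 13.9% were higher in that way. Cfd was 29.1 ± 14.9 CPM (SD, n = 3) at 24 weeks and 0.622 ± 0.251 CPM at 7 weeks. Adipoq was 6.28 ± 3.22 CPM at 24 weeks and 0.0666 ± 0.0861 CPM at 7 weeks. Plin1 was 7.13 ± 4.07 CPM at 24 weeks and 0.0616 ± 0.0741 CPM at 7 weeks. Cidec was 7.20 ± 3.04 CPM at 24 weeks and 0.434 ± 0.0863 CPM at 7 weeks. The rise of the mean was thus 46.8-fold for Cfd and 16.6-fold for Cidec. Lep, at 0 counts in all 7-week WT libraries, was at least 3.45-fold higher at 24 weeks against a floor of 3 counts per library.

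In the test of age in WT mice, Retn had an adjusted p of 0.0238 and Adipoq one of 0.0453 in edgeR's quasi-likelihood test over 12 libraries of 7 and 24 weeks. Both genes were under 1 CPM in every 7-week WT library and passed the filter through the libraries where they were high. These calls are thus no support beyond the counts, and no fitted fold is given in the text. Retn had 286 counts at 24 weeks and 2 at 7 weeks in all, a ratio per library total of 146 with a 95% exact interval of 40.0 to 1211 that covers counting error only. Both 7-week counts came from the third WT library, so that the ratio has no finite value without it. Adipoq had 1, 4 and 0 counts in WT at 7 weeks. These 2 of 9 members tested stand beside 4.01% of 14788 rows called. All 9 passed at an unadjusted p under 0.05, where 21.1% of rows did. DESeq2 called 7 members and 8.34% of rows, and without the filter 8 members and 1.94% of rows were called. Most of these members passed the filter through their 24-week levels, so that their count of calls does not stand for the 10 members.

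The calls in WT changed with the libraries used, whereas the direction of the fold changes did not. It was positive for both genes in all 18 alternatives. Leaving out any 1 of the 3 WT libraries of 7 weeks, or the second or the third of 24 weeks, left neither gene called, with adjusted p between 0.0638 and 0.138. Without the first 24-week WT library or the first 7-week Clr-f-/- library, Adipoq alone lost its call, with adjusted p of 0.0700 and 0.0521. Adipoq also missed the threshold with library totals in place of normalisation factors, at 0.0510. Without the third 7-week Clr-f-/- library, the one with fat cell counts, 5 members were called, as was the case without the first or the third 24-week Clr-f-/- library, and without the second 6 were called. In that order, the rows called were 440 of 14689, 516 of 14718, 1627 of 14689 and 800 of 14733.

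In Clr-f-/- mice, 1 member, Lep, was higher in every 24-week library than in every 7-week library, where 13.7% of all genes were, and the third 7-week library overlapped the second 24-week library in the others. None of the 9 members tested was called at an adjusted p under 0.05 in edgeR's quasi-likelihood test, where 7.72% of 14788 rows were. At an unadjusted p under 0.05, 6 members and 26.5% of rows passed. DESeq2 called 1 member, Plin4, and 12.8% of rows, and without the filter 5 members and 3.22% of rows were called. Retn and Ucp1 were under 1 CPM in every 7-week Clr-f-/- library and passed the filter through the 24-week libraries. Their passing at an unadjusted p is thus no support beyond the counts, and no fitted fold is given for them in the text. The log2 fold change was 2.56 ± 1.08 (SE) for Adipoq and 2.41 ± 1.23 for Cfd, with adjusted p of 0.158 and 0.240. At 7 weeks both genes exceeded 1 CPM in the third Clr-f-/- library alone, so that these folds rest on that library. Over the alternatives the value ran from 1.27 to 6.26 for Adipoq and from 0.85 to 7.05 for Cfd. In both cases it was lowest without the first 24-week Clr-f-/- library and highest without the third 7-week one. Without the third 7-week library, the second 24-week library or the third 24-week library, which has the Xist counts, 3 members were called in each case. The rows called in these cases were 301 of 14689, 899 of 14733 and 3002 of 14689.

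The change with age was compared between genotypes by an interaction term in the same fit, and 0 of 9 members were called by edgeR's quasi-likelihood test, at an adjusted or an unadjusted p under 0.05, or by DESeq2. These rules called 0.845%, 18.5% and 5.25% of rows. Plin4, Fabp4 and Car3 were over 1 CPM in every library of both ages. Their difference, Clr-f-/- minus WT, was -0.16 ± 0.71 (SE), -0.23 ± 0.50 and 0.29 ± 0.71 on the log2 scale. Over the alternatives it ran from -1.08 to 0.16, from -0.62 to 0.08 and from -0.56 to 0.70. The other members tested were under 1 CPM in every 7-week WT library, with 1, 4 and 0 counts for Adipoq, 4, 1 and 0 for Plin1 and 2, 7 and 0 for Ucp1. They passed the filter through the libraries where they were high, so that no difference is given for them. Without the third 24-week Clr-f-/- library, the rows called went from 593 to 1627 with age in WT, from 1142 to 3002 in Clr-f-/- and from 125 to 1291 for this term. The 7-week and 24-week comparisons share libraries with the age comparisons and with this term.

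**Figure D2:**
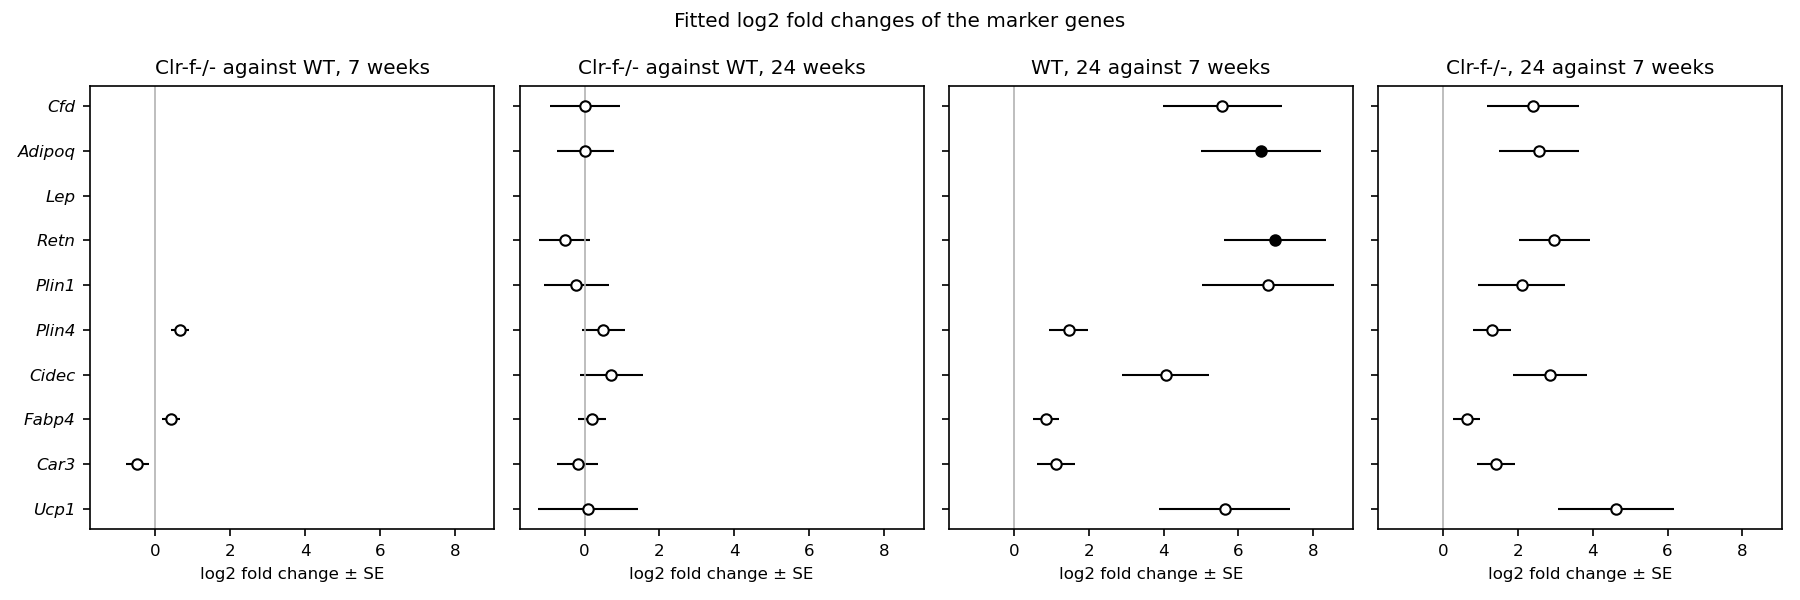
Fitted log2 fold change (points) with its standard error (bars) for each marker gene in 4 comparisons, with filled points for an adjusted p under 0.05 and no point where a gene did not pass the filter. The genotype differences at 24 weeks straddle 0, and only Retn and Adipoq in WT, 24 against 7 weeks, are filled. These 2 genes had at most 4 counts in each 7-week WT library, so that their fitted folds are not read as sizes.

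Ucp1 was close to the detection floor in 2 of the 6 libraries of 24 weeks. It was counted 3, 207 and 228 times in WT and 350, 5 and 189 times in Clr-f-/-. The first WT library and the second Clr-f-/- library were close to the floor although they held 108 and 42 counts of Adipoq. As a share of the counts of both genes, Ucp1 made up 2.7% (95% exact Clopper-Pearson interval 0.561% to 7.70%) in that WT library and 10.6% (3.55% to 23.1%) in that Clr-f-/- library. In the other 4 libraries of this age the share ran from 45.3% to 63.4%. These intervals cover counting error only.

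Of 13 genes in the brown fat list, 5 that were picked after their values were seen (Cidea, Cox8b, Dio2, Otop1 and Kcnk3) were lowest in the same pair of libraries. Cidea, which encodes a droplet protein of brown fat, was counted 7, 139 and 131 times in WT and 109, 6 and 96 times in Clr-f-/- at 24 weeks. Cox8b, a respiratory chain subunit of brown fat and muscle, was counted 3, 40 and 54 times in WT and 24, 0 and 100 times in Clr-f-/-. Dio2, the deiodinase that activates thyroid hormone, was counted 3, 39 and 46 times in WT and 20, 2 and 29 times in Clr-f-/-. Otop1 was counted 1, 27 and 14 times in WT and 16, 0 and 11 times in Clr-f-/-. Kcnk3, a potassium channel of brown fat and other cells, was counted 46, 70 and 94 times in WT and 91, 31 and 75 times in Clr-f-/-. All 5 genes were thus lowest in the first WT and the second Clr-f-/- library. Other genes of the list did not single out this pair. Elovl3 was counted 0, 0 and 2 times in WT and 9, 0 and 16 times in Clr-f-/-, and Cpt1b 15, 17 and 28 times in WT and 23, 28 and 29 times in Clr-f-/-, with its highest CPM, 1.09, in the second Clr-f-/- library. Ppargc1a, Prdm16, Fabp3 and Cox7a1, which kidney cells also express, had over 200 counts in each of the 6 libraries. Zic1 and Lhx8, regulators of the interscapular brown depot, had at most 1 count in any of the 18 libraries. The list had 0 of 9 tested genes called between the genotypes at 24 weeks by edgeR's quasi-likelihood test, 1 at an unadjusted p under 0.05 and 1 by DESeq2, with a median log2 fold change of 0.06 beside 0.02 over all rows. Of all rows, these rules called 0.0491%, 18.2% and 4.54%.

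**Figure D3:**
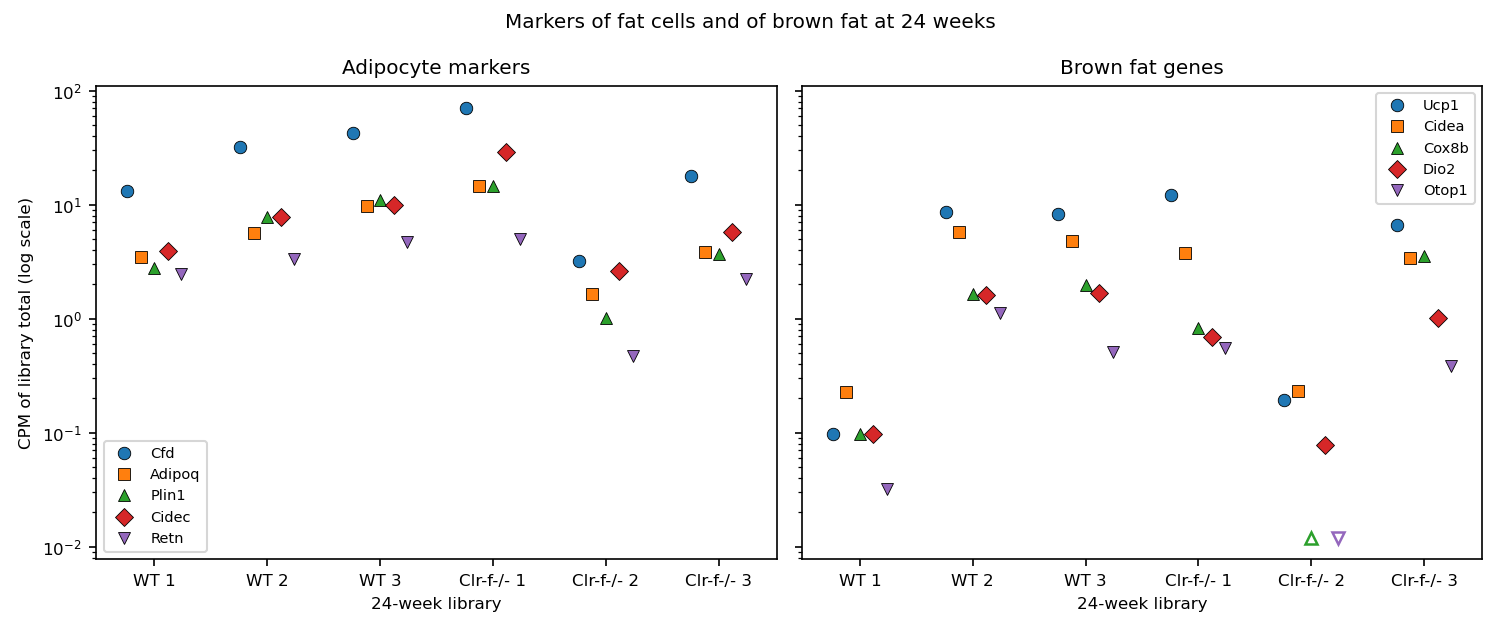
Level of 5 adipocyte markers (left) and 5 brown fat genes (right) in the 6 libraries of 24 weeks, as CPM of the library total on a log axis, with open symbols for a count of 0. Adipocyte markers are present in the first WT library, at 3.47 CPM for Adipoq, while its Ucp1, Cidea, Cox8b, Dio2 and Otop1 lie under 0.3 CPM, as they do in the second Clr-f-/- library.

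**Figure D4:**
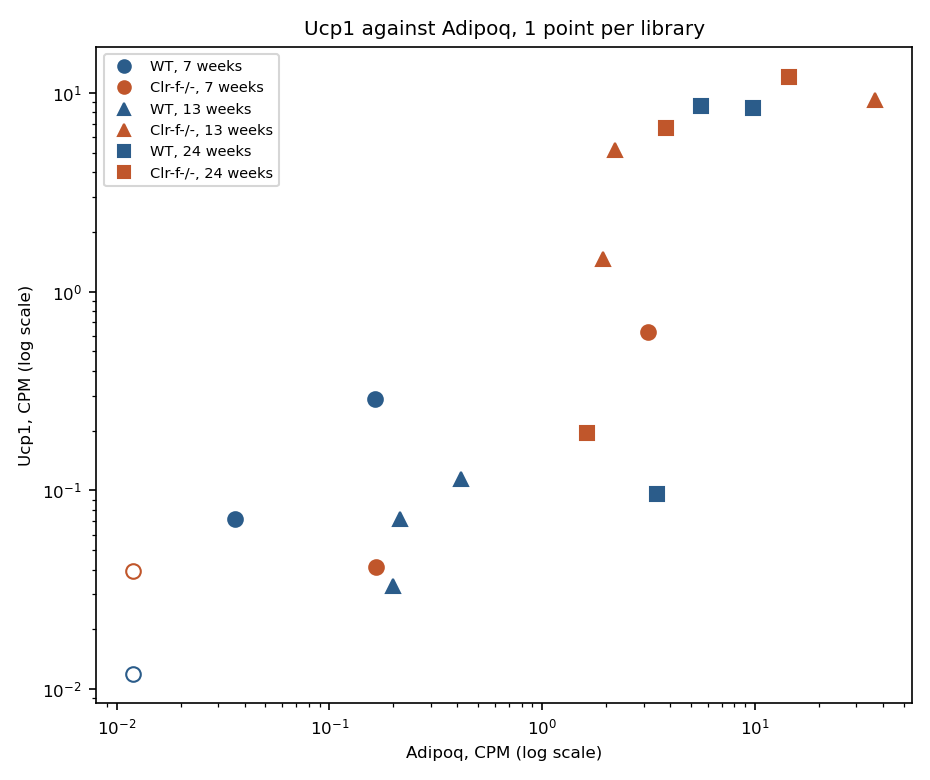
Ucp1 against Adipoq in the 18 libraries, both as CPM of the library total on log axes, by genotype (colour) and age (shape), with open symbols where either count was 0, drawn at the axis end. Libraries with 1.6 to 4 CPM of Adipoq span Ucp1 levels from 0.0964 to 6.64 CPM.

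Among the 6 libraries of 24 weeks, 6 of the 9 other members passed a correlation with Adipoq. Over all ages the libraries fell into those with and those without fat cell counts, so that the relation with Adipoq is given within 24 weeks, a choice made after seeing the data, on log2(CPM + 0.5). Pearson's r with Adipoq was 0.968 for Cfd and 0.979 for Plin1 (two-sided exact permutation p = 0.00139 each, n = 6). Cidec had r = 0.957, Car3 0.961 and Retn 0.930, with exact permutation p adjusted over the 9 relations between 0.00626 and 0.00751. Plin4 had r = 0.893 with an adjusted exact permutation p of 0.0229. Spearman's rho was 1 for Cfd, Plin1 and Cidec (exact permutation p = 0.00278) and 0.943 for Car3, Retn and Plin4 (exact permutation p = 0.0167). Without the first and the second Clr-f-/- libraries, the farthest from the median of Adipoq, r was 0.947 for Cfd, 0.955 for Plin1, 0.928 for Cidec, 0.923 for Car3, 0.978 for Retn and 0.927 for Plin4 over 4 libraries.

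For the other 3 members Pearson's r did not pass at an adjusted p under 0.05, and no test compared the correlations with each other. Fabp4 had r = 0.795 (adjusted exact permutation p = 0.0786) with a rho of 0.943, and Ucp1 had r = 0.797 (adjusted exact permutation p = 0.0812) with a rho of 0.886. Lep had r = 0.589 (adjusted exact permutation p = 0.217) with a rho of 0.486. The rho of Fabp4 and of Ucp1 passed at adjusted exact permutation p of 0.0214 and 0.0375. Without the same pair of libraries r was 0.727 for Fabp4, 0.612 for Ucp1 and 0.557 for Lep. Over all 12 libraries of 7 and 24 weeks, where the libraries form separate clusters and no pooled r is given, all 9 relations passed, with adjusted permutation p of at most 0.0014. That split of the libraries can decide this test, so that nothing is drawn from it. With each group's mean taken off first, all 9 also passed by Pearson's r over these 12 libraries, Fabp4 with r = 0.785 (adjusted permutation p = 0.00282), Ucp1 with r = 0.705 (0.0132) and Lep with r = 0.615 (0.0331). By rank Lep did not pass, with a rho of 0.556 (adjusted permutation p = 0.0648), and it had at most 1 count in each library of 7 weeks. Without the third 7-week and the first 24-week Clr-f-/- libraries those values of r were 0.630, 0.739 and 0.433.

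Compared per length, as CPM per kilobase of the longest protein-coding transcript in GENCODE M21 (896 bases for Fabp4 to 5756 for Plin4), Fabp4 came first and Car3 second in both genotypes at 24 weeks and in WT at 7 weeks. In WT at 7 weeks Fabp4 was 45.6 ± 10.5 (SD, n = 3) and Car3 19.3 ± 5.13, followed by Cfd at 0.675 ± 0.272, and these 3 levels lay apart beyond their SDs. In WT at 24 weeks Fabp4 was 82.1 ± 31.9, Car3 41.8 ± 9.95 and Cfd 31.6 ± 16.1, each overlapping its neighbour within its SD. Adipoq at 4.86 ± 2.50 came next, apart from Cfd, and was followed by Cidec at 4.19 ± 1.76, Ucp1 at 3.46 ± 2.95, Retn at 3.07 ± 1.01, Plin1 at 2.53 ± 1.44 and Plin4 at 1.28 ± 0.540. In this series each gene overlapped the next within its SD. Lep was last at 0.114 ± 0.0481, below Plin4 beyond the SDs. In Clr-f-/- at 24 weeks Cfd, at 33.3 ± 38.7, again followed Car3. The levels depend on the transcript taken, since the longest Fabp4 transcript of any type has 4231 bases.

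Summed over all 10 members, the libraries ranged from 66.1 to 980 CPM, the latter less than 0.1% of the counts. Fabp4 and Car3 made up between 60.1% and 95.9% of that sum outside the second and the third 13-week Clr-f-/- libraries, so that the sum follows these genes rather than those near the floor at 7 weeks. The sum of Cfd, Adipoq, Retn, Plin1 and Cidec, a set picked after its values were seen and not tested, was 1.40, 1.43 and 0.777 CPM in WT and 1.08, 0.433 and 29.4 CPM in Clr-f-/- at 7 weeks. It was 25.7, 56.2 and 77.8 CPM in WT and 134, 8.89 and 33.2 CPM in Clr-f-/- at 24 weeks. By this sum the libraries of 24 weeks overlapped between genotypes, and the 7-week library with the highest sum lay above the lowest of them.

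At 13 weeks the WT libraries resembled those of 7 weeks, and the Clr-f-/- libraries, whose values entered the choice of members, were higher for most members. Adipoq was counted 6, 6 and 11 times in WT and 63, 1014 and 49 times in Clr-f-/-. Retn was counted 3, 3 and 3 times in WT and 15, 748 and 72 times in Clr-f-/-. Cidec was counted 16, 20 and 20 times in WT and 108, 2903 and 191 times in Clr-f-/-. The second Clr-f-/- library was the highest of the 6 libraries in 9 of the 10 members. Lep, with 1, 4 and 0 counts in WT and 1, 4 and 0 in Clr-f-/-, did not separate the genotypes.

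Of the other members at 13 weeks, Ucp1 was counted 2, 1 and 3 times in WT and 48, 255 and 114 times in Clr-f-/-. Car3 was counted 416, 1135 and 811 times in WT and 1698, 4096 and 1014 times in Clr-f-/-. Plin4 was counted 96, 82 and 84 times in WT and 126, 720 and 46 times in Clr-f-/-, so that 2 Clr-f-/- libraries lay above and the third below the WT libraries in counts. Fabp4 was the 1 member lower in every Clr-f-/- library, at 1489, 1350 and 1150 counts in WT and 1003, 541 and 98 in Clr-f-/-. In all, 7 members were higher in every Clr-f-/- library, where 20% of all genes were, and 42% of all genes were lower in every Clr-f-/- library.

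The GC content of the longest protein-coding transcript is given beside these values, and its part in them was not tested. In the second Clr-f-/- library the difference from the WT mean of log2(CPM + 0.5) was 8.73 for Cfd with 58.4% GC, 2.88 for Plin4 with 55.9%, 5.59 for Adipoq with 47.5%, 4.09 for Ucp1 with 47.1% and -1.25 for Fabp4 with 40.3%. Lep, with 48.7% GC, differed by 0.22. With GC content and length of the longest transcript of any type as offsets, the fitted log2 fold change of Fabp4 went from -0.96 to 0.79, that of Cfd from 8.71 to 7.07 and that of Adipoq from 6.29 to 6.69. With protein-coding transcripts, an alternative added after seeing the data, the values were 0.80, 7.03 and 6.82. Cidec, Plin1, Plin4, Car3 and Ucp1 also stayed positive with both offsets.

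**Figure D5:**
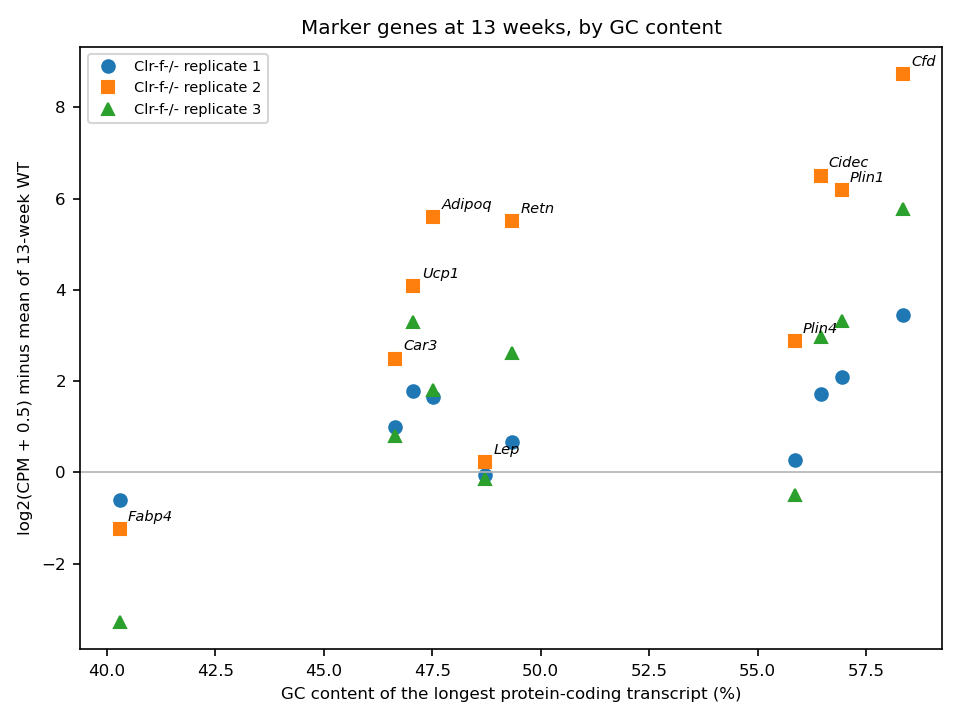
Difference of each 13-week Clr-f-/- library from the mean of the 3 WT libraries of that age, on the log2(CPM + 0.5) scale, against the GC content of the gene's longest protein-coding transcript, with 1 symbol per library. Fabp4, at the lowest GC content, lies under 0 in all 3 libraries, and Cfd, at the highest, lies between 3.44 and 8.73.

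Markers of other cells moved with some of these libraries. Of the 6 mesothelium genes, Krt19 was counted 98, 47 and 109 times in WT and 55, 69 and 494 times in Clr-f-/- at 7 weeks, and 49, 315 and 226 times in WT and 315, 130 and 127 times in Clr-f-/- at 24 weeks. Upk3b, Upk1b and Msln were also highest of the 6 libraries of 7 weeks in the third Clr-f-/- library, Lrrn4 had at most 9 counts in any library, and Gpm6a did not follow. The summed level of the list ran from 185 to 240 CPM in WT and from 198 to 214 CPM in Clr-f-/- at 7 weeks, and from 203 to 249 CPM in WT and from 149 to 220 CPM in Clr-f-/- at 24 weeks. At 13 weeks it ran from 169 to 184 CPM in WT and from 30.8 to 139 CPM in Clr-f-/-. Gpm6a made up between 17.0% and 97.3% of this sum, the lowest shares at 13 weeks in Clr-f-/-, so that the sum follows Gpm6a. The sum of the other 5 genes, taken after the values were seen, ran from 5.00 to 10.8 CPM in WT and from 5.87 to 52.0 CPM in Clr-f-/- at 7 weeks, from 5.48 to 10.8 and from 14.4 to 45.6 CPM at 13 weeks, and from 6.17 to 31.1 and from 9.80 to 26.4 CPM at 24 weeks. Of 5 red cell genes, all 5 were highest of the 6 libraries of 7 weeks in the third Clr-f-/- library. Hba-a1, a haemoglobin chain, was counted 988, 610 and 1737 times in WT and 2167, 1257 and 4472 times in Clr-f-/- at that age. The summed level of the red cell list ran from 83.4 to 201 CPM in WT and from 172 to 549 CPM in Clr-f-/- at 7 weeks, from 123 to 322 and from 570 to 2095 CPM at 13 weeks, and from 288 to 334 and from 126 to 207 CPM at 24 weeks. The part of these cells in the marker values was not tested. Of 7 adrenal cortex genes and 7 pancreatic acinar genes, 6 each had at most 10 counts in all 18 libraries, as had 4 of 8 skeletal muscle genes, among them Ckm. All 10 kidney epithelium genes were counted above the floor in every library, and Umod was called with age in Clr-f-/-, at 0.78 ± 0.15 (SE), a call lost without the first or the third 7-week or the first 24-week Clr-f-/- library.

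Stromal and immune genes also differed between some groups. Col1a1, a fibrillar collagen chain of fibroblasts, was counted 918, 837 and 1253 times in WT and 2017, 2334 and 2892 times in Clr-f-/- at 7 weeks, so that all 3 Clr-f-/- libraries were higher. Its log2 fold change was 1.31 ± 0.07 (SE) with an adjusted p of 0.000407 in edgeR's quasi-likelihood test, and the call held on leaving out each of the 6 libraries. Col3a1, another collagen chain, had 1.17 ± 0.13 with an adjusted p of 0.0172, and lost its call in 3 of the 6 cases. These are 2 of 7 stroma genes, where 0.464% of rows were called. With age in Clr-f-/-, Col1a1 fell by 1.52 ± 0.24 and Col3a1 by 1.79 ± 0.28 on the log2 scale, calls that held in all 12 cases. The summed stroma level ran from 193 to 247 CPM in WT and from 337 to 411 CPM in Clr-f-/- at 7 weeks, from 182 to 314 and from 114 to 179 CPM at 13 weeks, and from 215 to 225 and from 140 to 292 CPM at 24 weeks. Pi16, a fibroblast gene, was called with age in WT at 1.21 ± 0.25, Lyz2, the macrophage lysozyme, with age in WT at 0.74 ± 0.18, and Ighm, the heavy chain of IgM, with age in Clr-f-/- at 2.15 ± 0.57, and these calls were lost in 5, 9 and 10 of 12 cases. Ighm had 1630 counts in the first 24-week Clr-f-/- library, the highest for all 10 members, and at most 409 in the other 5 of that age. The part of these cells in the marker values was not tested.

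At 13 weeks 38.7% of 13864 rows had an adjusted p under 0.05 in edgeR's quasi-likelihood test, 21.9% higher and 16.9% lower in Clr-f-/-, and these calls rest on the whole set of libraries. The 3030 higher and 2341 lower rows became 1793 and 2911 with the replicate number as a block, 777 and 421 with GC and length offsets, and 123 and 120 with those of protein-coding transcripts. On leaving out any WT library or the second or the third Clr-f-/- library 0 or 1 rows were called, with 4780 to 6146 at an unadjusted p under 0.05. Without the first Clr-f-/- library 10838 were called. With library totals alone 0 were called, with 5367 at an unadjusted p under 0.05, and DESeq2 called 7773. The list genes named next are thus a description of these 6 libraries. Of the fat cell lists, 5 of 10 lipid droplet genes were higher, among them Fitm1 with a fitted log2 fold change of 2.30 and Bscl2 with 1.97. Cidea, which led them, was counted 6, 3 and 6 times in WT and 68, 756 and 196 times in Clr-f-/-. It passed the filter through the Clr-f-/- libraries, so that no fold is given for it. Of 8 lipolysis genes 2 were higher, Mgll with 3.25 and Pnpla2 with 2.08. In fatty acid uptake and triglyceride synthesis 9 of 20 were higher, led by Thrsp with 4.83, Fasn with 2.54 and Gpihbp1 with 2.27, and of 11 transcription factors 6 were, led by Cebpd with 2.83, Nr1h3 with 2.31 and Cebpa with 1.69. Slc36a2, Aoc3 with 2.87 and Sncg with 1.34 were higher among 7 other fat cell genes, and Npr3 was lower with -1.64. Slc36a2 was counted 3, 3 and 7 times in WT and 42, 368 and 34 times in Clr-f-/-. It also passed the filter through the Clr-f-/- libraries and gets no fold. Of 6 brown fat genes, Cidea, Kcnk3 with 3.48 and Cox7a1 with 2.06 were higher and Ppargc1a was lower with -2.27. Of 5 adipokine receptors, Cdh13 was higher with 1.61 and Adipor1 with 0.99.

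In the lists of other cells at 13 weeks, 5 of 5 red cell genes were higher, led by Hbb-bs with a fitted log2 fold change of 3.73, Hba-a1 with 3.39 and Hba-a2 with 3.39, and 3 of 5 mesothelium genes, Upk3b with 2.81, Krt19 with 2.67 and Msln with 2.25. Of 10 kidney epithelium genes, Aqp2, the water channel of the collecting duct, was higher with 2.07, Cdh16 with 1.70 and Slc34a1 with 1.5, whereas Slc12a1 was lower with -1.88. Cd68 of the macrophage list had 1.38 and Pi16 of the stroma list 1.66. Cd79b of the lymphoid list was higher as well, at 26, 24 and 17 counts in WT and 54, 33 and 35 in Clr-f-/-. It was under 1 CPM in each WT library and gets no fold. The part of these genes' cells in the marker values was not tested.

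Of the 10 other genes most like the members, 4 (Slc36a2, Adrb3, Nat8l and Mrap) were in the fat cell lists described here. Over the 15 libraries outside 13-week Clr-f-/-, log2(CPM + 0.5) of 13956 genes was set against log2 of the summed members, as a description of libraries that share a split by fat cell counts. Slc36a2 had r = 0.967, Adrb3 0.966, Nat8l 0.961 and Abcd2 0.954, followed by Apol6, A530016L24Rik, Hp, Hk2, Mrap and Prkar2b at 0.910. Adrb3, the adrenergic receptor through which fat cells receive the signal for lipolysis, was counted 1, 1 and 1 times in WT and 0, 2 and 20 times in Clr-f-/- at 7 weeks, and 43, 40 and 83 times in WT and 111, 10 and 25 times in Clr-f-/- at 24 weeks. With the 3 Clr-f-/- libraries of 13 weeks added, r fell to 0.498 for Abcd2 and 0.239 for Prkar2b, and Slc36a2 stayed at 0.966. With the sum of the 5 genes above as the target, an alternative added after seeing the data, 9 of the 10 names were shared.

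In the list of 20 genes of fatty acid uptake and triglyceride synthesis, 3 rose and 1 fell with age in WT, where 4.01% of rows were called. Fasn, the fatty acid synthase, rose by 1.17 ± 0.24 (SE) on the log2 scale with an adjusted p of 0.0272, Acaca by 0.88 ± 0.20 and Acly by 0.44 ± 0.09, and Acsl1, which activates long-chain fatty acids, had a log2 fold change of -0.57 ± 0.13. In Clr-f-/- mice, where 7.72% of rows were called, 3 of the 20 rose with age, Acsl1 by 0.65 ± 0.13, Acly by 0.62 ± 0.09 and Agpat2 by 0.39 ± 0.09. The median of the list was 0.17 in WT and 0.29 in Clr-f-/- beside 0.00 and 0.01 over all rows. Acsl1 was the 1 gene of the list whose change with age differed between genotypes, by 1.22 ± 0.18 with an adjusted p of 0.0230 in edgeR's quasi-likelihood test. Its level was 270 ± 13.1 CPM in WT and 257 ± 8.80 CPM in Clr-f-/- at 7 weeks, and 181 ± 17.1 and 404 ± 91.1 CPM at 24 weeks (SD, n = 3 each). On leaving out 1 of the 12 libraries at a time, this difference stayed between 1.06 and 1.36 but missed the threshold in 8 cases, without any 1 of the 6 libraries of 7 weeks or the first or second WT library of 24 weeks, with adjusted p of at most 0.0689. In Clr-f-/- mice the age call of Acly held in all 12 cases, that of Acsl1 was lost without any of the 3 Clr-f-/- libraries of 7 weeks, and that of Agpat2 without the first or second Clr-f-/- library of either age. In WT mice the calls of Fasn and Acly were lost without any WT library of 7 weeks or the second or the third of 24 weeks, with adjusted p of at most 0.11 and 0.113, and those of Acaca and Acsl1 were lost in 8 and 9 of the 12 cases.

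In the lipolysis list of 9 genes, 1 was called in each genotype comparison at 7 and 24 weeks, Mgll, the monoglyceride lipase, with log2 fold changes of 1.41 ± 0.14 (SE) and 1.53 ± 0.13. That is 1 of 8 genes tested at 7 weeks, where 0.464% of rows were called, and 1 of 9 at 24 weeks, where 0.0491% were. Mgll was counted 1790, 2199 and 3127 times in WT and 5917, 5580 and 6746 times in Clr-f-/- at 7 weeks, so that it was higher in all 3 Clr-f-/- libraries, including both with members near the floor. Adrb3 was called with age in WT, with an adjusted p of 0.0375 in edgeR's quasi-likelihood test, but it had 1 count in each 7-week WT library and passed the filter through its 24-week levels, so that no fold is given. The lipid droplet list of 10 genes had 0 called in either genotype comparison at 7 and 24 weeks and 0 with age in either genotype, by edgeR's quasi-likelihood test. In those 4 comparisons, 2, 2, 1 and 5 of its genes passed at an unadjusted p under 0.05 and DESeq2 called 0, 2, 1 and 3. Of all rows, 19.7%, 18.2%, 21.1% and 26.5% passed at that p, and DESeq2 called 4.59%, 4.54%, 8.34% and 12.8%. Of 12 adipocyte transcription factors, Cebpa was the 1 called between the genotypes at 7 and 24 weeks or with age, at 0.41 ± 0.07 with age in Clr-f-/-, where 7.72% of rows were called. Of 15 other fat cell genes in the table, in the same comparisons, Mrap, a melanocortin receptor partner, was called with age in WT, where 4.01% of rows were, with an adjusted p of 0.0246. It had 2, 1 and 2 counts in WT at 7 weeks and 18, 32 and 38 at 24 weeks, passed the filter through the 24-week libraries, and gets no fold here. Npr3, the natriuretic peptide clearance receptor, was called with age in Clr-f-/- at 0.79 ± 0.20. On leaving out 1 library at a time, Cebpa kept its call in all 12 cases, and Mgll, whose log2 fold change stayed between 1.26 and 1.66 at both ages, lost it at 7 weeks without the second library of either genotype and at 24 weeks without any library but the third Clr-f-/- one. Adrb3 lost its call without any WT library or the second 7-week Clr-f-/- library, Mrap, which passed the filter in 9 of the 12 cases, without any WT library of 7 weeks, and Npr3 without any library other than the 3 Clr-f-/- libraries of 24 weeks.

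The genes of the proteins that act with Cfd and of the adipokine receptors were counted as follows. Cfb, the substrate of Cfd, was counted between 212 and 361 times in each library of 7 and 24 weeks. Hc, which encodes complement C5, had at most 9 counts in any of the 18 libraries. Of the 11 genes of the alternative complement pathway, C3 was called with age in WT, where 4.01% of rows were, at a log2 fold change of 1.61 ± 0.36 (SE). Cfp, or properdin, fell by 0.52 ± 0.14 with age in Clr-f-/-, where 7.72% of rows were called. On leaving out 1 of the 12 libraries, these calls were lost in 8 and 11 cases, with adjusted p of at most 0.140 and 0.130. None of the 11 was called between the genotypes at 7 or 24 weeks by edgeR's quasi-likelihood test, while 3 and 1 passed at an unadjusted p under 0.05 and DESeq2 called 0 and 1. Of all rows, 19.7% and 18.2% passed at that p, and DESeq2 called 4.59% and 4.54%. Adipor1 and Adipor2, the adiponectin receptors, had between 2872 and 5056 counts in each library of 7 and 24 weeks, and Lepr, the leptin receptor, had between 116 and 442. None of the 5 adipokine receptor genes was called between the genotypes at 7 or 24 weeks or with age in either genotype by edgeR's quasi-likelihood test or DESeq2, and 2 passed at an unadjusted p under 0.05 between the genotypes at 7 weeks, where 19.7% of rows did.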

How the data were processed

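The authors quality-filtered the reads (Fastx-toolkit), used STAR 2.7.5a with the GRCm38.p6 genome and the annotation GENCODE M25, dropped duplicate reads and deposited 1 table, which they call FPKM but whose whole numbers are raw counts per row. How strand and multiply mapped reads were treated is not given in the sources used here. Names came from GENCODE M21 and matched 99.5% of rows, and no value column was left unmapped. The members and lists were chosen with earlier results of these data known. Counts were fitted with edgeR 4.0.16 in R 4.3.3 (quasi-likelihood test, TMM, at least 1 CPM in at least 3 fitted libraries, Benjamini-Hochberg over all rows, threshold 0.05), per age for the genotypes and over the 12 libraries of 7 and 24 weeks for age. Replicates are separate mice, and same-numbered mice are not pairs. Alternatives were RLE and upper-quartile factors, library totals, no filter, a replicate block, DESeq2 1.42.0, each library left out and, at 13 weeks, GC and length offsets (longest transcript of any type and, added after seeing the data, longest protein-coding transcript). On simulated data the fit of the genotypes at 24 weeks recovered 194 of 200 genes changed by 1.5 on the log2 scale among 14128, with 11 false calls, at a single dispersion that does not stand for members with SEs of up to 1.34. Named were all members, in each list the 3 largest called changes per direction and the 10 genes most like the members, and genes named beyond these were chosen after their values were seen.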

Additional observations from a re-analysis of the deposited data

Results flagged for a closer look

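Of the listed genes that were named, 7 moved in opposite directions between the genotypes at 7 and 24 weeks, with every Clr-f-/- library on one side of the WT mean at 7 weeks and on the other at 24 weeks. The share of all genes that met this rule is not given here, so that the 7 have no background beside them. Acsl1 stood out by this and by the test of the difference itself, an interaction of 1.22 (log2, Clr-f-/- minus WT change with age) with an adjusted p of 0.0230 in edgeR's quasi-likelihood test, between 2.04e-07 and 0.0689 over its alternatives. Its log2 ratio of means, Clr-f-/- over WT, was -0.07 at 7 weeks and 1.16 at 24 weeks.

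The adult haemoglobin genes of red cells had log2 ratios of means at 7 and at 24 weeks of 1.37 and -0.76 for Hba-a1, 1.43 and -0.77 for Hba-a2, and 1.34 and -0.76 for Hbb-bs. Their interaction terms had adjusted p of 0.0769, 0.0749 and 0.0853 in edgeR's quasi-likelihood test, with lowest values over the alternatives of 0.00540, 0.000960 and 0.00838. Pi16, a fibroblast gene, had ratios of 0.66 and -0.23, and an interaction adjusted p of 0.20. Pnpla2, the lipase that starts triglyceride breakdown, had ratios of -0.15 and 0.31, and an interaction adjusted p of 0.114, at lowest 0.00988 over the alternatives. Umod, the urinary protein of the thick ascending limb, had ratios of -0.40 and 0.23, and an interaction adjusted p of 0.169. None of these 6 passed the interaction test with TMM factors and the filter.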

How the results depend on the processing

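Between the genotypes no member was called at 24 weeks under any alternative, and at 7 weeks 5 were called with no filter, where 4.22% of rows were. With age in WT, 1 member was called with library totals alone, 8 with no filter, 7 by DESeq2 and between 0 and 6 on leaving out 1 library. The rows called were 521 of 14788, 672 of 34576, 1233 of 14788 and between 44 and 1627. With age in Clr-f-/-, 5 were called with no filter, 1 by DESeq2 and between 0 and 3 on leaving out 1 library. Here the rows called were 1113 of 34576, 1887 of 14788 and between 301 and 3002. The median log2 fold change of the members at 13 weeks, 6.43 as a description, ran from 0.92 to 6.63 on leaving out 1 library, with 4 members past the filter without a Clr-f-/- library. Over the pathway and cell type lists, with no filter 32 genes were called between genotypes at 7 weeks, 4 at 24 weeks, 21 with age in WT, 21 in Clr-f-/- and 8 by the interaction. With the filter these were 3, 1, 9, 10 and 1. The rows called with no filter were 1323 of 31321, 66 of 32197, 672 of 34576, 1113 of 34576 and 169 of 34576. With the replicate number as a block, 1 member was called with age in WT, and over the lists 7 genes at 7 weeks, 0 at 24 weeks and 5 by the interaction, although correlations of same-numbered libraries (-0.28 to 0.28) gave no pairing of the samples. The rows called with that block were 335 of 14788, 106 of 14226, 1 of 14270 and 56 of 14788. The cause of these shifts was not tested. Seven-week counts of Adipoq, Retn, Plin1, Lep, Adrb3 and Mrap at or near the floor limit any fold change against them.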
